A study of Homo sapiens with 30 samples.

Results

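The 40 genes described here carry fatty acids through their life in a liver cell: the regulators, the enzymes that synthesise, activate and esterify fatty acids, the proteins that coat and empty lipid droplets, and the enzymes that oxidise fatty acids in mitochondria. They are listed by name from textbook pathways, a list drawn up with earlier results of these data known, and all 40 were found among the 60675 gene rows of the deposited table. Expression was measured by RNA sequencing in 30 libraries of HepG2, a human hepatocellular carcinoma line, taken 24 h after treatment. The vehicle group received 0.1% DMSO (n = 3). Ethanol extracts of Palmul-tang and Sibjeondaebo-tang (n = 3 a dose), Samul-tang (n = 2 a dose) and Sagunja-tang (n = 1 a dose) were each given at 500, 100 and 20 µg/mL, called the high, medium and low dose. All are traditional multi-herb formulas. In the tradition Palmul-tang is a union of Samul-tang with Sagunja-tang, and Sibjeondaebo-tang is Palmul-tang with further herbs, but the labels give neither herbs nor amounts. One tumour line stands for the liver here, and nothing in the labels says that replicates came from separate cultures, so p-values measure the spread between these libraries, which may be technical.

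As background, excess carbon leaves the mitochondrion as citrate, which ATP citrate lyase (ACLY) splits to acetyl-CoA. Acetyl-CoA carboxylases (ACACA, ACACB) make malonyl-CoA, fatty acid synthase (FASN) builds palmitate, and desaturases and elongases (SCD, FADS1, FADS2, the ELOVL family) reshape it, largely under the transcription factors SREBP-1 (SREBF1) and ChREBP (MLXIPL). Acyl-CoA synthetases (ACSL family) then activate fatty acids, which are either joined to glycerol by GPAM, AGPAT2, lipins and DGAT enzymes and stored in droplets coated by perilipins, or taken into mitochondria by CPT1A and CPT2 and shortened by beta-oxidation. The nuclear receptors PPARA and PPARG act on genes of oxidation and of storage, and malonyl-CoA blocks CPT1A, so synthesis and oxidation are normally opposed.

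Libraries held between 21570416 and 37707232 expected counts, and their fitted biological coefficient of variation was 5.47%. Liver markers were present in every library: the summed level of 10 hepatocyte markers was 54062 to 65182 CPM, the counts scaled to a fixed library total, and the adipocyte genes LEP, FABP4 and LPL were at 0 in all of them, with ADIPOQ at most at 0.0558 CPM. The summed level of 8 adipocyte markers was 7.21 to 9.96 CPM. Macrophage markers summed to 1080 to 1827 CPM, nearly all of it LYZ (1017 to 1758 CPM), while MARCO, C1QA and C1QB were at 0. Fibroblast markers stood at 35.4 CPM in Sibjeondaebo-tang low replicate 3, where COL1A1 reached 8.29 CPM, against at most 11.1 CPM in every library of the other groups. The pair of Samul-tang medium libraries differed most from each other, with a chi-square per gene of 30.9 against 2.99 to 18.8 in the other replicate pairs. Some of the results that rest on these libraries, but not all, are given with and without them. Transcripts encoded by the mitochondrial genome took 17.2% to 19.4% of the counts of Sibjeondaebo-tang high libraries, and 12.4% to 14.5% of those of vehicle libraries. The highest share, 19.7%, was in Sibjeondaebo-tang medium replicate 3. The column labels begin differently for the vehicle libraries, for Samul-tang with Sagunja-tang, and for Palmul-tang with Sibjeondaebo-tang, so these sets of libraries and the contrast of extract with vehicle cannot be told apart. Comparisons between doses of 1 formula, and between Sibjeondaebo-tang and Palmul-tang, lie within a set.

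Promoter sequences of 5 members are shown because these genes, chosen after their values were seen, recur below: from low to high dose FADS2 and GPAM were called lower and PLIN2 higher under 3 formulas, and the paralogs ACSL1 and ACSL3 were called in opposite directions. Each is the 250 bases before the RefSeq start site (GRCh38.p14), written 5′ to 3′ on the gene's own strand, with matches to the searched motifs in capitals. For all 5 that start lies inside the longer gene of GENCODE 29, far inside for FADS2, GPAM and PLIN2 and near its edge for ACSL1 and ACSL3.
FADS2, chr11:61815953-61816202, plus strand: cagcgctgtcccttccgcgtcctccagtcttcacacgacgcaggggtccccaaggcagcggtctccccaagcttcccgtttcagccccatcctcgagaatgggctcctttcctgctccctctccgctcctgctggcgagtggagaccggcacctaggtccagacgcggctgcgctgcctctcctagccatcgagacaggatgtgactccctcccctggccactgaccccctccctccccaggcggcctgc
GPAM, chr10:112183766-112184015, minus strand: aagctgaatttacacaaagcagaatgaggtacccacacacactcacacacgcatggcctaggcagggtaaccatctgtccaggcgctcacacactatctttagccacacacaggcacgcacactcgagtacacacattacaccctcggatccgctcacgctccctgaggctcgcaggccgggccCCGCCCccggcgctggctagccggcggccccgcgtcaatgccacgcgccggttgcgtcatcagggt
PLIN2, chr9:19127493-19127742, minus strand: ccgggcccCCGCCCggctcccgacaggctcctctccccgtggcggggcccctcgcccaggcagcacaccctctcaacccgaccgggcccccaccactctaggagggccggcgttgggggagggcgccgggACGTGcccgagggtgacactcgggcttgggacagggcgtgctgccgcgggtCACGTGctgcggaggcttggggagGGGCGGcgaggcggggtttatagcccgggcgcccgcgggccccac
ACSL1, chr4:184825969-184826218, minus strand: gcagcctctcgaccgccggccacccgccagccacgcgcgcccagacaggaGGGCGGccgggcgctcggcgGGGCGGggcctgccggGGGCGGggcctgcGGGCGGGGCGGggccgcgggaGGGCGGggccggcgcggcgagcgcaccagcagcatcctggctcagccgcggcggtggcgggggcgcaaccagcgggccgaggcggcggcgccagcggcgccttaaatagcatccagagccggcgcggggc
ACSL3, chr2:222860786-222861035, plus strand: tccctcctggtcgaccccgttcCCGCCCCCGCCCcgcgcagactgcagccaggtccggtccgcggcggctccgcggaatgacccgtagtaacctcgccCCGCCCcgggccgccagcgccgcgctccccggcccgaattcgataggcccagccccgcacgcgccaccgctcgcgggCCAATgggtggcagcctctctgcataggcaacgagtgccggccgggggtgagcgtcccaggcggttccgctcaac
RefSeq held a 300-base window (250 before and 50 after the start) for 35 of the 40 members, all but FASN, DGAT1, DGAT2, HILPDA and PNPLA3. The motifs were searched on both strands, and overlapping motifs were each counted. The GC box GGGCGG was in 25 of the 35 windows (71.4%) and in 45% of all 35116 windows. The CCAAT box CCAAT was in 10 (28.6%, against 34.6% of all) and the hypoxia response core ACGTG in 7 (20%, against 21.4%). The E-box CACGTG, to which basic helix-loop-helix factors bind, was in the windows of ELOVL5 and PLIN2 (5.71%, against 7.26%). A sterol regulatory element TCACNCCAC was found in the PNPLA2 window alone (2.86%, against 1.13%), and the PPAR-type direct repeat with a 1-base spacer in none (0%, against 0.0228%). In the sequences above, PLIN2 holds an E-box 69 bases before the start, which also contains the hypoxia core on both strands, ACSL1 holds 6 GC boxes and ACSL3 3, and the FADS2 window holds no match. A match is a description of letters, not a binding site.

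Levels of different genes are compared per kilobase of exon (TPM-like, mean ± SD over the 3 vehicle libraries). SCD, which puts the first double bond into stearate, stood highest at 1758 ± 41.4, ahead of FASN at 593 ± 29.3, ACSL4 at 435 ± 24.1, the liver fatty acid binding protein FABP1 at 340.5 ± 33.3 and ACLY at 312 ± 9.23. HADHA, of the mitochondrial trifunctional protein, was the highest oxidation gene at 252 ± 7.48. Among droplet proteins PLIN2 led with 116 ± 5.31, followed by CIDEB at 69.5 ± 2.49 and PLIN3 at 53.2 ± 2.14, while PLIN5 was at 0.564 ± 0.095. DGAT1 (52.5 ± 1.31) stood above DGAT2 (24.0 ± 1.35), although both make triglyceride from diacylglycerol. ACACA, the cytosolic carboxylase, was at 45.3 ± 0.485 and its mitochondrial-surface partner ACACB at 6.68 ± 0.236. The lipase gene LIPE, known for hormone-sensitive lipolysis in fat, was listed at 0 counts in all 30 libraries and was not tested.

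Of the 39 members tested, 33 passed the test (edgeR quasi-likelihood, adjusted p below 0.05 over 16083 genes) against vehicle in at least 1 of the 9 extract groups. The share of all genes called in at least 1 of the 9 was not counted, so this number cannot be set against it. Palmul-tang at the high dose changed 22 members, 8 higher and 14 lower, where 16.3% of all tested genes were called higher and 15.6% lower. At the medium dose it was 8 higher and 9 lower (all genes 11.6% and 10.8%; 11 and 7 members by DESeq2 with its own scaling), and at the low dose 6 and 5 (11.5% and 11.7%; 8 and 4 by DESeq2). Sibjeondaebo-tang at the high dose changed 6 higher and 12 lower (19.3% and 16.7%) and 8 and 10 at the medium dose (15.3% and 14.8%). Its low dose gave 5 and 7 (11.5% and 11.5%), or 8 and 5 by DESeq2, 6 and 5 with median-ratio factors in edgeR, and 5 and 4 without the library with fibroblast transcripts. Samul-tang at the high dose changed 5 higher and 13 lower (9.82% and 8.69%), 6 and 7 at the medium dose (10.3% and 9.57%) and 5 and 4 at the low dose (6.47% and 4.79%; 6 and 3 by DESeq2). Of the 13 calls at the Samul-tang medium dose, 2 were left without replicate 2. At the high doses the lower calls were 14, 12 and 13 of 39 members, a larger share than over all genes, and the higher calls 8, 6 and 5. The median change of the members was -0.04, 0.01 and -0.07 on the log2 scale at the 3 high doses, beside -0.0087, -0.0087 and -0.004 over all genes.

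**Figure D1:**
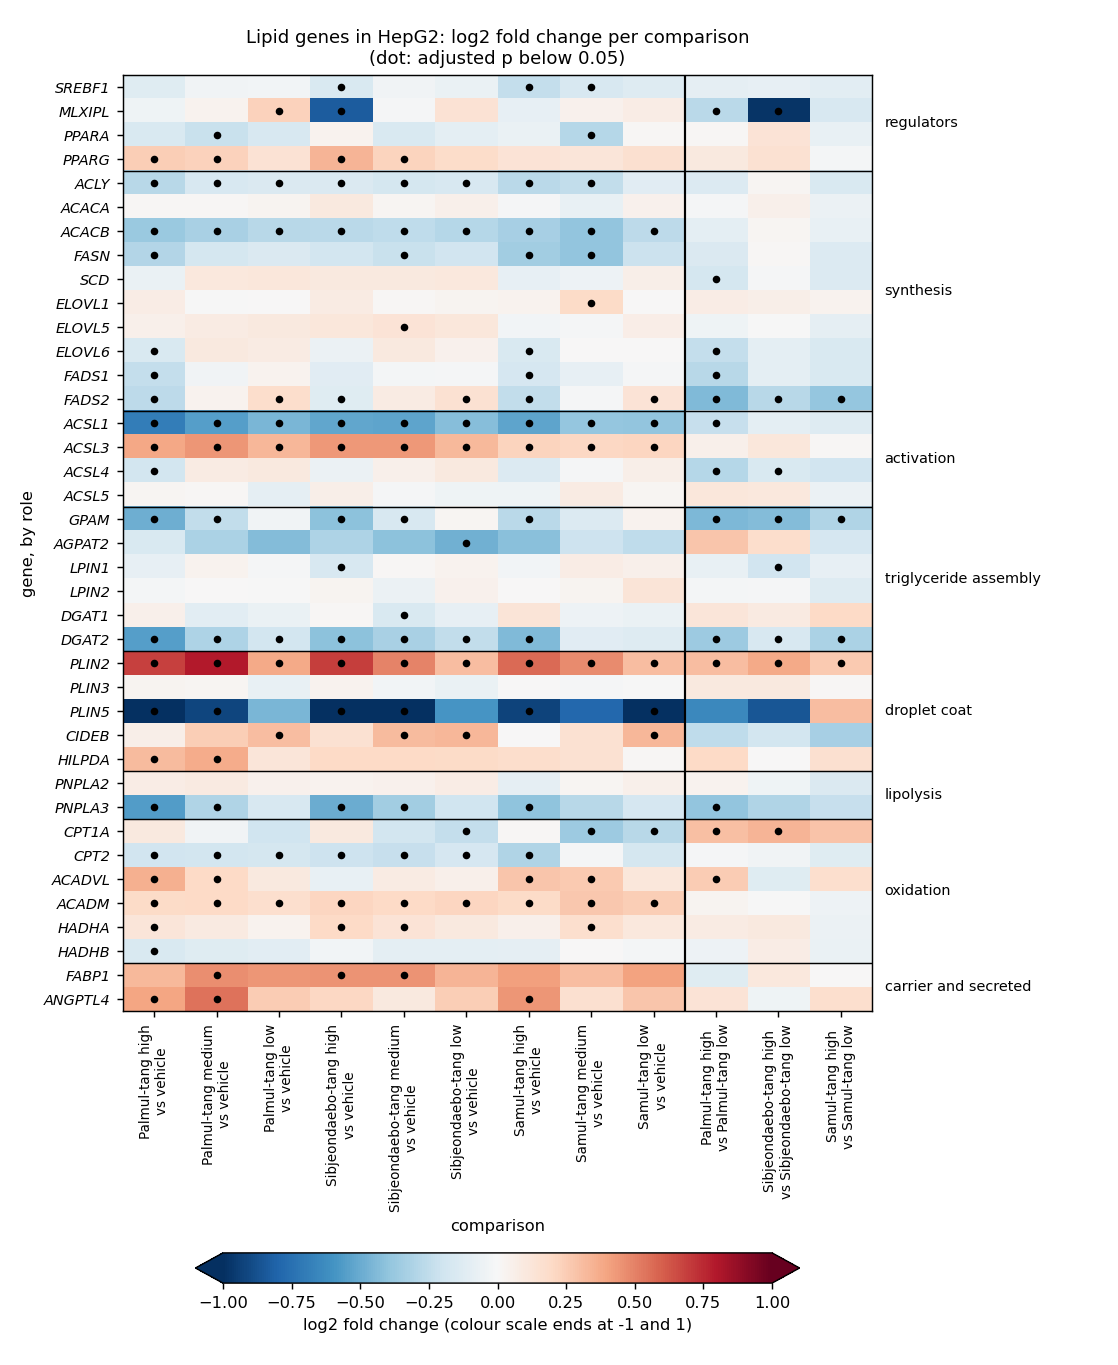
Log2 fold change of the 39 tested genes (rows, by role) in 9 comparisons with vehicle and 3 comparisons of the high with the low dose (columns, right of the line), with a dot where the adjusted p was below 0.05. ACACB and ACSL1 are blue and ACSL3, PLIN2 and ACADM red in all 9 vehicle columns, while FADS2, GPAM, DGAT2 and PLIN2 carry a dot in all 3 dose columns.

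Of the 39 members, 5 were called in the same direction in all 9 comparisons with vehicle. ACACB and ACSL1 were lower, and ACSL3, PLIN2 and ACADM were higher. Over all genes, 2.7% were called higher in all 9 and 1.93% lower, and the 9 share the vehicle libraries. Without Samul-tang medium replicate 2, ACSL1 (adjusted p = 0.104), ACSL3 (0.0504) and ACADM (0.457) missed the threshold in that one comparison. At all 3 high doses 9 members were lower (ACLY, ACACB, FADS2, ACSL1, GPAM, DGAT2, PLIN5, PNPLA3 and CPT2) and 3 were higher (ACSL3, PLIN2 and ACADM), where 6.06% of all genes were lower and 7.44% higher in all 3. Of all 170 calls of a member in a comparison, 90 held when any 1 library was left out. PLIN2 kept its call in all 9 whichever library was left out, ACACB lost it at Samul-tang low without either of its libraries and ACSL3 there without replicate 3, ACSL1 lost none beyond the one at Samul-tang medium, and ACADM lost each of its 9 without at least 1 library. Elsewhere the libraries whose omission ended a call close the paragraph for calls discussed there, where own means the extract group. Not every lost call is listed, so an unlisted call may also rest on 1 library. The 6 members that passed in none of the 9 were ACACA, SCD, ACSL5, LPIN2, PLIN3 and PNPLA2.

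Part of the synthesis genes fell at the high doses. Of 10 members, 6 fell and 0 rose under Palmul-tang high (median log2 change -0.20), 3 fell and 0 rose under Sibjeondaebo-tang high (-0.09), and 6 fell and 0 rose under Samul-tang high (-0.16). Over all genes 15.6%, 16.7% and 8.69% were called lower and 16.3%, 19.3% and 9.82% higher in these groups. ACACA, ELOVL1 and ELOVL5 had positive mean log2 changes over the 3 high doses (0.03, 0.07 and 0.05). At the low doses, 2, 2 and 1 were lower, where 11.7%, 11.5% and 4.79% of all genes were, and FADS2 was higher in each. ACLY, which makes the acetyl-CoA, had 529, 549 and 551 CPM in the 3 vehicle libraries. Palmul-tang gave ACLY levels of 502, 489 and 484 CPM at 20 µg/mL, 501, 476 and 479 at 100 µg/mL and 449, 442 and 450.5 at 500 µg/mL. Sibjeondaebo-tang gave ACLY levels of 488, 471 and 495 CPM at 20 µg/mL, 488, 474 and 482 at 100 µg/mL and 482, 500.5 and 488 at 500 µg/mL. Every one of these 18 libraries lay below the lowest vehicle library, and the log2 fold change was -0.28 ± 0.050 (adjusted p = 6.18e-05) at Palmul-tang high and -0.15 ± 0.050 (adjusted p = 0.0197) at Sibjeondaebo-tang high. Samul-tang gave ACLY levels of 504 and 498 CPM at 20 µg/mL, 411 and 504 at 100 µg/mL and 442 and 461 at 500 µg/mL. The 3 Sagunja-tang libraries, from low to high dose, had 520.1, 506 and 435 CPM. The change at Samul-tang high was -0.27 ± 0.056 (adjusted p = 0.00102), and the low dose did not pass (-0.12 ± 0.055, adjusted p = 0.186). ACLY at Sibjeondaebo-tang high (vehicle 3) lost its call without 1 library, given by replicate number (adjusted p = 0.0645).

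FASN, the palmitate-building enzyme, had 1834, 1897 and 1823 CPM in vehicle. Palmul-tang gave FASN levels of 1591, 1656 and 1764 CPM at 20 µg/mL, 1572, 1661 and 1689.8 at 100 µg/mL and 1574, 1527 and 1436 at 500 µg/mL. Sibjeondaebo-tang gave FASN levels of 1664, 1654 and 1543 CPM at 20 µg/mL, 1594, 1566 and 1598 at 100 µg/mL and 1593, 1693 and 1605 at 500 µg/mL. All 18 libraries were below the vehicle range, but the test passed only at Palmul-tang high (-0.29 ± 0.079 (adjusted p = 0.00595)) and Sibjeondaebo-tang medium (-0.22 ± 0.079 (adjusted p = 0.0341)) of these 6 groups. Samul-tang gave FASN levels of 1505 and 1694 CPM at 20 µg/mL, 1172 and 1639.6 at 100 µg/mL and 1339 and 1569 at 500 µg/mL. Sagunja-tang libraries had FASN at 1773, 1585 and 1501 CPM from low to high dose. Samul-tang passed at the high dose (-0.35 ± 0.089 (adjusted p = 0.00728)) and at the medium dose (-0.40 ± 0.089 (adjusted p = 0.00254)). Without Samul-tang medium replicate 2 the adjusted p of the latter was 0.202. FASN at Sibjeondaebo-tang medium (any 1 of 6) and FASN at Samul-tang high (own 2) lost their calls without 1 library, given by replicate number (adjusted p = 0.057 to 0.173).

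ACACB, whose malonyl-CoA is known to restrain CPT1A, had 30.8, 32.7 and 33.5 CPM in vehicle. Palmul-tang gave ACACB levels of 27.6, 26.6 and 26.03 CPM at 20 µg/mL, 26.1, 24.5 and 27.1 at 100 µg/mL and 26.4, 25.1 and 23.2 at 500 µg/mL. Sibjeondaebo-tang gave ACACB levels of 25.95, 28.0 and 25.5 CPM at 20 µg/mL, 27.2, 27.1 and 27.1 at 100 µg/mL and 26.2, 28.1 and 26.1 at 500 µg/mL. The lowest vehicle library stood above all 18. Samul-tang gave ACACB levels of 27 and 26.98 CPM at 20 µg/mL, 22.9 and 26.4 at 100 µg/mL and 24.6 and 26.6 at 500 µg/mL. Sagunja-tang libraries had ACACB at 29.2, 26.99 and 24.5 CPM. The log2 fold change against vehicle ran from -0.39 (Samul-tang medium, adjusted p = 0.000151) to -0.25 (Sibjeondaebo-tang medium, adjusted p = 0.00201), and no comparison of the high with the low dose passed. ACACA, the form that feeds synthesis, was not called in any comparison, with changes against vehicle from -0.07 to 0.10.

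FADS2, the first desaturase of polyunsaturated fatty acid synthesis (chr11:61792980-61867354 in GENCODE 29, GRCh38; promoter above), was the one synthesis gene called lower from low to high dose under all 3 formulas with replicates. It had 327, 329 and 333 CPM in vehicle. Palmul-tang gave FADS2 levels of 386, 357 and 375 CPM at 20 µg/mL, 337, 340.1 and 334 at 100 µg/mL and 279, 274 and 272 at 500 µg/mL. Sibjeondaebo-tang gave FADS2 levels of 359, 372 and 367 CPM at 20 µg/mL, 337, 346 and 362 at 100 µg/mL and 295, 308 and 304 at 500 µg/mL. The low-dose libraries lay above vehicle and the high-dose libraries below it, without overlap. Samul-tang gave FADS2 levels of 361 and 366 CPM at 20 µg/mL, 335 and 319.8 at 100 µg/mL and 276 and 281 at 500 µg/mL. Sagunja-tang libraries had FADS2 at 388, 343 and 260.3 CPM. The high dose was below the low dose by a log2 change of -0.44 ± 0.040 (adjusted p = 2.86e-09) under Palmul-tang, -0.28 ± 0.040 (adjusted p = 5.56e-06) under Sibjeondaebo-tang and -0.38 ± 0.049 (adjusted p = 6.94e-06) under Samul-tang. Against vehicle, FADS2 was higher at the low dose of Palmul-tang (0.18 ± 0.040), Sibjeondaebo-tang (0.15 ± 0.040) and Samul-tang (0.14 ± 0.045, adjusted p = 0.0371), and lower at their high doses (-0.26, -0.12 and -0.24). FADS2 overlaps FADS1 on the opposite strand, and the library kit kept strand per the labels' protocols. It also overlaps FEN1 on its own strand (1286 to 2776 counts), so reads of these 2 can be mixed, and FEN1 itself had log2 changes from low to high dose of 0.00, 0.09 and -0.04 (adjusted p = 0.991, 0.344 and 0.932 by edgeR). FADS1, the next desaturase of that chain, fell at Palmul-tang high (-0.24 ± 0.049) and Samul-tang high (-0.17 ± 0.055), and ELOVL6, which lengthens palmitate, fell there too (-0.15 ± 0.043 and -0.15 ± 0.047). FADS2 at Samul-tang low (any 1 of 5), FADS2 at Sibjeondaebo-tang high (vehicle 3), FADS1 at Samul-tang high (vehicle 1 or 2 or own 2) and ELOVL6 at Samul-tang high (vehicle 1 or 2 or own 2 or 3) lost their calls without 1 library, given by replicate number (adjusted p = 0.0507 to 0.345).

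SCD did not pass against vehicle in any of the 9 comparisons (log2 changes from -0.08 to 0.12), and fell from the low to the high dose of Palmul-tang (-0.18 ± 0.044 (adjusted p = 0.00939)). ELOVL1 was higher only at Samul-tang medium (0.19 ± 0.063), a value of 0.04 without replicate 2, and ELOVL5 only at Sibjeondaebo-tang medium (0.14 ± 0.048). No synthesis member but FADS2, ELOVL1 and ELOVL5 was called higher in any of the 9. SCD between Palmul-tang doses (high 2 or low 3), ELOVL1 at Samul-tang medium (vehicle 2 or 3 or own 2) and ELOVL5 at Sibjeondaebo-tang medium (vehicle 2 or 3 or own 2 or 3) lost their calls without 1 library, given by replicate number (adjusted p = 0.0526 to 0.832).

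The regulators did not move together. SREBF1, the gene of SREBP-1, had 98.0, 101 and 95.2 CPM in vehicle. Palmul-tang gave SREBF1 levels of 96.02, 91.9 and 100.5 CPM at 20 µg/mL, 92.5, 96.4 and 99.0 at 100 µg/mL and 87.3, 96.5 and 87.4 at 500 µg/mL. Sibjeondaebo-tang gave SREBF1 levels of 94.7, 96.4 and 89.7 CPM at 20 µg/mL, 93.4, 93.7 and 100.4 at 100 µg/mL and 86.6, 89.6 and 89.1 at 500 µg/mL. Only the Sibjeondaebo-tang high group passed of these (-0.15 ± 0.050 (adjusted p = 0.0169)). Samul-tang gave SREBF1 levels of 85.7 and 93.4 CPM at 20 µg/mL, 86.7 and 89.3 at 100 µg/mL and 81.3 and 85.4 at 500 µg/mL. Sagunja-tang libraries had SREBF1 at 95.8, 91.0 and 92.9 CPM. All 6 Samul-tang libraries lay below vehicle, and the test passed at the high (-0.24 ± 0.055 (adjusted p = 0.00284)) and medium dose (-0.16 ± 0.055 (adjusted p = 0.0405)). PPARG, the adipogenic receptor, had 14.0, 16.8 and 17.3 CPM in vehicle. Palmul-tang gave PPARG levels of 19.6, 17.5 and 16.5 CPM at 20 µg/mL, 19.4, 18.1 and 19.2 at 100 µg/mL and 19.0, 18.0 and 20.3 at 500 µg/mL. Sibjeondaebo-tang gave PPARG levels of 18.1, 18.1 and 18.6 CPM at 20 µg/mL, 18.5, 19.2 and 18.5 at 100 µg/mL and 20.4, 20.6 and 19.9 at 500 µg/mL. It passed at Palmul-tang high (0.24 ± 0.075 (adjusted p = 0.0123)) and medium (0.23) and at Sibjeondaebo-tang high (0.34 ± 0.074 (adjusted p = 0.000646)) and medium (0.22). Samul-tang gave PPARG levels of 18.4 and 17.5 CPM at 20 µg/mL, 18.9 and 15.9 at 100 µg/mL and 17.2 and 18.2 at 500 µg/mL. Sagunja-tang libraries had PPARG at 21.0, 18.5 and 18.2 CPM. No Samul-tang dose passed for PPARG. PPARA, the receptor of fasting and oxidation genes, was lower at Palmul-tang medium (-0.22 ± 0.067) and Samul-tang medium (-0.29 ± 0.075), the second not without replicate 2 (adjusted p = 0.498). SREBF1 at Samul-tang high (own 2), SREBF1 at Samul-tang medium (vehicle 1 or 2 or own 2 or 3), PPARG at Palmul-tang high (vehicle 1 or own 3), PPARG at Palmul-tang medium (vehicle 1 or own 1 or 3), PPARG at Sibjeondaebo-tang medium (vehicle 1 or own 2 or 3) and PPARA at Palmul-tang medium (vehicle 3 or own 1) lost their calls without 1 library, given by replicate number (adjusted p = 0.0501 to 0.294).

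MLXIPL, the gene of the carbohydrate-sensing factor ChREBP, showed the largest fall of the synthesis and regulator genes, in 1 group. It had 174, 184 and 191 CPM in vehicle. Palmul-tang gave MLXIPL levels of 218, 214 and 211 CPM at 20 µg/mL, 170.0, 190.0 and 203 at 100 µg/mL and 174, 193 and 166 at 500 µg/mL. Sibjeondaebo-tang gave MLXIPL levels of 196, 213 and 198 CPM at 20 µg/mL, 173, 188 and 183 at 100 µg/mL and 106, 108 and 93.6 at 500 µg/mL. The 3 Sibjeondaebo-tang high libraries were far below every other library, which for the rest began at 165 CPM. Samul-tang gave MLXIPL levels of 183 and 202 CPM at 20 µg/mL, 199.7 and 178 at 100 µg/mL and 177 and 169 at 500 µg/mL. Sagunja-tang libraries had MLXIPL at 186, 179.6 and 165 CPM. The change at Sibjeondaebo-tang high was -0.84 ± 0.066 (adjusted p = 9.14e-11) against vehicle and -0.98 ± 0.066 (adjusted p = 5.11e-12) against its own low dose. Palmul-tang gave a rise at the low dose (0.23 ± 0.065 (adjusted p = 0.0116)) and a fall from the low to the high dose (-0.27 ± 0.065 (adjusted p = 0.00777)). Of the synthesis genes, ACLY, ACACB and FADS2 were called lower in that same Sibjeondaebo-tang high group. FASN and ACACA were not called there, at -0.18 ± 0.079 (adjusted p = 0.0726) and 0.10 ± 0.051 (adjusted p = 0.13). A link of these values to the fall of MLXIPL was not tested. MLXIPL at Palmul-tang low (vehicle 1) and MLXIPL between Palmul-tang doses (high 3) lost their calls without 1 library, given by replicate number (adjusted p = 0.0562 to 0.0656).

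Activation of fatty acids showed a split between paralogs against vehicle that was present at every dose. As said above, the contrast with vehicle cannot be told apart from the sets of libraries. ACSL1, the chief acyl-CoA synthetase of liver (chr4:184755595-184826818), had 80.8, 78.1 and 79.2 CPM in vehicle. Palmul-tang gave ACSL1 levels of 55.5, 60.3 and 57.5 CPM at 20 µg/mL, 59.0, 53.2 and 50.5 at 100 µg/mL and 51.0, 46.3 and 50.4 at 500 µg/mL. Sibjeondaebo-tang gave ACSL1 levels of 58.5, 61.0 and 57.9 CPM at 20 µg/mL, 57.7, 56.7 and 51.1 at 100 µg/mL and 56.2, 55.2 and 54.8 at 500 µg/mL. All 18 were below vehicle without overlap, at -0.69 ± 0.068 (adjusted p = 5.76e-09) for Palmul-tang high and -0.52 ± 0.068 (adjusted p = 6.19e-07) for Sibjeondaebo-tang high. Samul-tang gave ACSL1 levels of 62.9 and 58.0 CPM at 20 µg/mL, 53.1 and 68.4 at 100 µg/mL and 53.0 and 57.2 at 500 µg/mL. Sagunja-tang libraries had ACSL1 at 64.2, 61.3 and 51.6 CPM. The Samul-tang high value was -0.53 ± 0.075 (adjusted p = 1.13e-05), and the low doses of the 3 formulas were at -0.46, -0.42 and -0.39, each called. Only Palmul-tang had a called difference between high and low dose (-0.23 ± 0.069 (adjusted p = 0.0354)). ACSL1 between Palmul-tang doses (high 1, 2 or 3 or low 2 or 3) lost its call without 1 library, given by replicate number (adjusted p = 0.0503 to 0.167).

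ACSL3, the droplet- and endoplasmic-reticulum-bound synthetase (chr2:222860934-222944639), moved the other way. It had 491, 499.9 and 484 CPM in vehicle. Palmul-tang gave ACSL3 levels of 592, 636 and 629.9 CPM at 20 µg/mL, 639, 697 and 672 at 100 µg/mL and 638, 667 and 621 at 500 µg/mL. Sibjeondaebo-tang gave ACSL3 levels of 629.7, 602 and 613 CPM at 20 µg/mL, 678, 653 and 658 at 100 µg/mL and 654, 657 and 683 at 500 µg/mL. All 18 libraries exceeded every vehicle library (0.39 ± 0.043 (adjusted p = 4.86e-08) at Palmul-tang high, 0.43 ± 0.043 (adjusted p = 3.93e-09) at Sibjeondaebo-tang high). Samul-tang gave ACSL3 levels of 567 and 574 CPM at 20 µg/mL, 581 and 556 at 100 µg/mL and 566 and 582 at 500 µg/mL. Sagunja-tang libraries had ACSL3 at 665, 688 and 614 CPM. The Samul-tang rise at the high dose was 0.22 ± 0.048 (adjusted p = 0.00128). No comparison of high with low dose passed for ACSL3 (0.05, 0.11 and 0.01). ACSL4, which prefers arachidonate, had 972, 863 and 958 CPM in vehicle. Palmul-tang gave ACSL4 levels of 929, 1015 and 1052 CPM at 20 µg/mL, 978, 996 and 984 at 100 µg/mL and 809, 827 and 826 at 500 µg/mL. Sibjeondaebo-tang gave ACSL4 levels of 1021, 964 and 1003 CPM at 20 µg/mL, 959, 983 and 959 at 100 µg/mL and 891, 907 and 891 at 500 µg/mL. It fell from the low to the high dose of Palmul-tang (-0.28 ± 0.050 (adjusted p = 0.00028)) and of Sibjeondaebo-tang (-0.15 ± 0.050 (adjusted p = 0.0306)). Samul-tang gave ACSL4 levels of 969 and 968 CPM at 20 µg/mL, 861 and 984 at 100 µg/mL and 834 and 859.7 at 500 µg/mL. Sagunja-tang libraries had ACSL4 at 1086, 1105 and 855 CPM. Against vehicle it passed only at Palmul-tang high (-0.18 ± 0.050 (adjusted p = 0.00593)), and ACSL5 passed in no comparison. ACSL4 between Sibjeondaebo-tang doses (low 1 or 3 or high 2 or 3) lost its call without 1 library, given by replicate number (adjusted p = 0.0513 to 0.116).

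**Figure D2:**
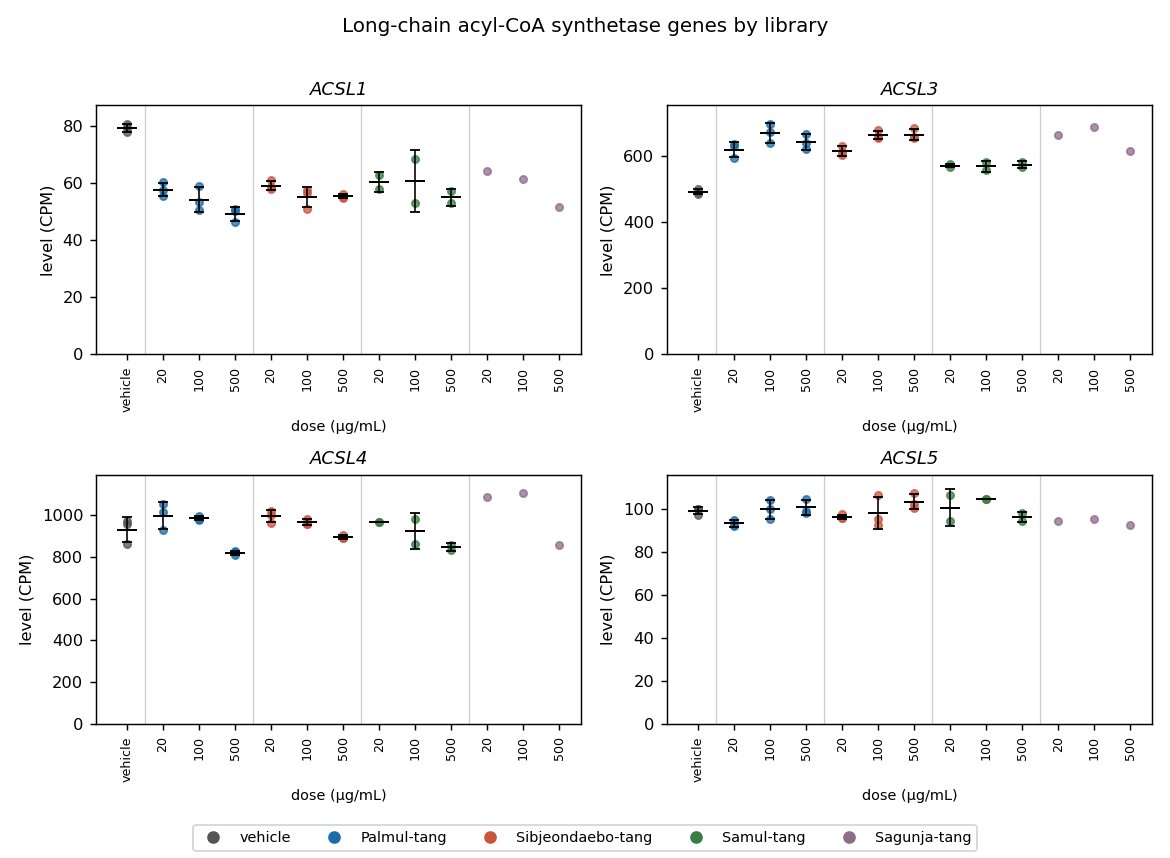
Level (CPM, linear axes from 0) of 4 acyl-CoA synthetase genes in each of the 30 libraries, by formula and dose, with the mean as a bar and the SD as whiskers where a group has more than 1 library. ACSL1 is below and ACSL3 above the vehicle libraries in every treated library, ACSL4 has its lowest mean at 500 µg/mL within each formula, and ACSL5 stays near the vehicle level.

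In triglyceride assembly, 2 of 6 members fell and 0 rose under Palmul-tang high (median -0.12), 3 and 0 under Sibjeondaebo-tang high (-0.24), and 2 and 0 under Samul-tang high (-0.15), beside medians near 0 over all genes. Of all genes 15.6%, 16.7% and 8.69% were called lower in these groups. GPAM, which adds the first acyl group to glycerol 3-phosphate (chr10:112149864-112215377), had 203, 183 and 194 CPM in vehicle. Palmul-tang gave GPAM levels of 177, 195 and 193 CPM at 20 µg/mL, 159, 168 and 161 at 100 µg/mL and 139, 133 and 143 at 500 µg/mL. Sibjeondaebo-tang gave GPAM levels of 192, 198 and 199 CPM at 20 µg/mL, 170.3, 169 and 179.5 at 100 µg/mL and 138, 149 and 148 at 500 µg/mL. The low-dose libraries overlapped or adjoined vehicle, the medium ones lay below it, and the high ones lay lower still. Samul-tang gave GPAM levels of 195 and 201 CPM at 20 µg/mL, 169.5 and 182 at 100 µg/mL and 156 and 165 at 500 µg/mL. Sagunja-tang libraries had GPAM at 187, 169 and 141 CPM. Against the low dose the high dose was at -0.45 ± 0.049 (adjusted p = 1.12e-07) for Palmul-tang, -0.43 ± 0.049 (adjusted p = 7.13e-08) for Sibjeondaebo-tang and -0.30 ± 0.059 (adjusted p = 0.00298) for Samul-tang, and against vehicle at -0.49, -0.41 and -0.27. GPAM between Samul-tang doses (high 2 or low 3) lost its call without 1 library, given by replicate number (adjusted p = 0.0737 to 0.116).

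DGAT2, the last enzyme of triglyceride synthesis that works on newly made fatty acids (chr11:75759512-75801535), had 64.2, 64.1 and 61.3 CPM in vehicle. Palmul-tang gave DGAT2 levels of 56.0, 55.4 and 55.4 CPM at 20 µg/mL, 54.6, 50.04 and 48.3 at 100 µg/mL and 43.5, 42.2 and 43.8 at 500 µg/mL. Sibjeondaebo-tang gave DGAT2 levels of 53.8, 53.7 and 52.4 CPM at 20 µg/mL, 54.7, 50.2 and 46.7 at 100 µg/mL and 48.0, 47.3 and 47.5 at 500 µg/mL. All 18 were below vehicle, and the Palmul-tang high libraries were the lowest of the 18. Samul-tang gave DGAT2 levels of 57.6 and 58.1 CPM at 20 µg/mL, 59.0 and 57.8 at 100 µg/mL and 46.2 and 46.8 at 500 µg/mL. Sagunja-tang libraries had DGAT2 at 56.0, 53.6 and 41.7 CPM. The high dose against vehicle was at -0.55 ± 0.050 (adjusted p = 9.35e-10), -0.41 ± 0.050 (adjusted p = 1.82e-07) and -0.44 ± 0.055 (adjusted p = 1.2e-06) for Palmul-tang, Sibjeondaebo-tang and Samul-tang. Against the low dose it was at -0.37 ± 0.050 (adjusted p = 6.31e-06), -0.16 ± 0.050 (adjusted p = 0.0192) and -0.32 ± 0.061 (adjusted p = 0.00264). DGAT1 passed once, at Sibjeondaebo-tang medium (-0.15 ± 0.053). Of the lipins, which dephosphorylate phosphatidate, LPIN1 fell at Sibjeondaebo-tang high (-0.16 ± 0.049) and LPIN2 passed nowhere. AGPAT2, a low-count gene here (35 to 86 counts), was called at Sibjeondaebo-tang low (-0.48 ± 0.18 (adjusted p = 0.0473)) and not without the library with fibroblast transcripts (adjusted p = 0.144). DGAT2 between Sibjeondaebo-tang doses (low 1 or 2 or high 2), DGAT2 between Samul-tang doses (high 2 or low 3), DGAT1 at Sibjeondaebo-tang medium (vehicle 1, 2 or 3 or own 1 or 2) and AGPAT2 at Sibjeondaebo-tang low (any 1 of 6) lost their calls without 1 library, given by replicate number (adjusted p = 0.0536 to 0.154).

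**Figure D3:**
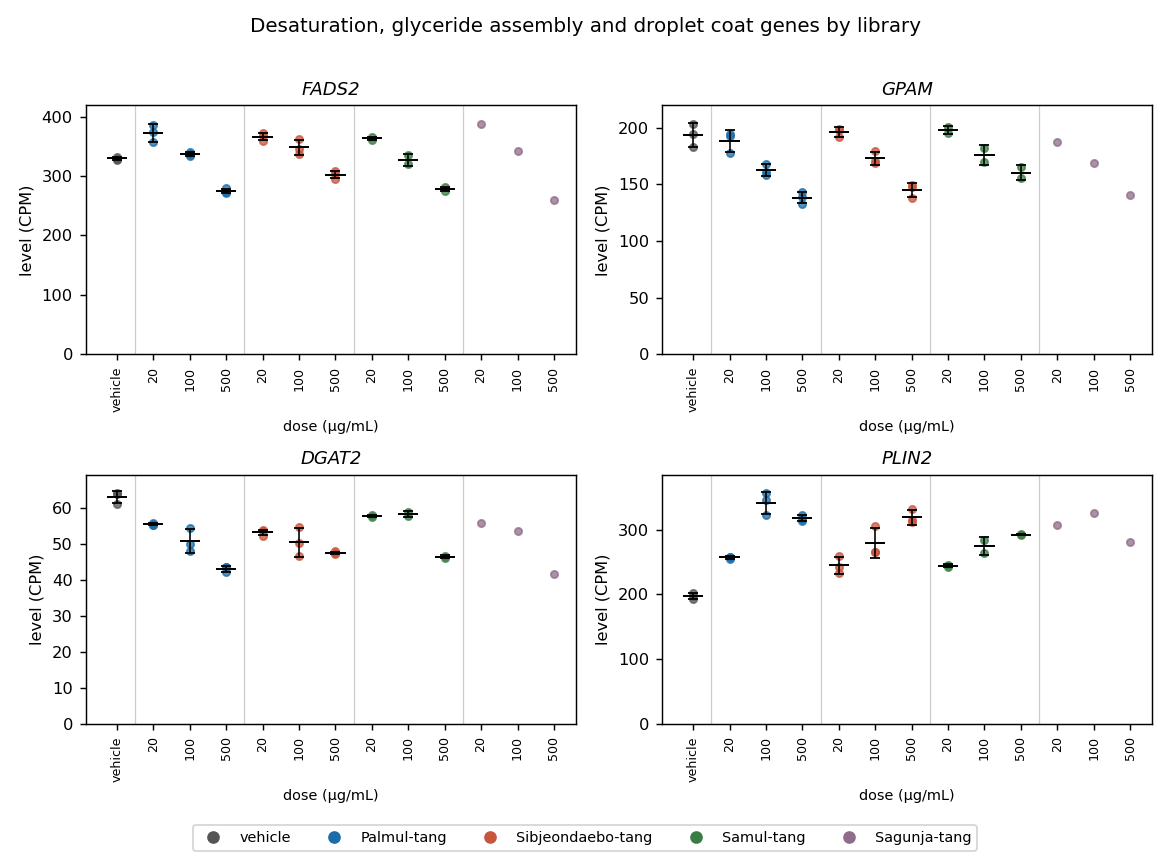
Level (CPM, linear axes from 0) of FADS2, GPAM, DGAT2 and PLIN2 in each of the 30 libraries, by formula and dose, with means and SD where a group has more than 1 library. FADS2 steps down from 20 to 500 µg/mL within each of the 4 formulas, GPAM likewise, DGAT2 is lowest at 500 µg/mL, and PLIN2 is above the vehicle range in all treated libraries.

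The droplet coat had calls in both directions. PLIN2, the perilipin that coats droplets in liver cells (chr9:19108375-19149290), had 193, 203 and 197 CPM in vehicle. Palmul-tang gave PLIN2 levels of 259, 255 and 259 CPM at 20 µg/mL, 356, 323 and 346 at 100 µg/mL and 323, 316 and 314 at 500 µg/mL. Sibjeondaebo-tang gave PLIN2 levels of 259, 234 and 243 CPM at 20 µg/mL, 306, 266 and 265 at 100 µg/mL and 333, 315 and 311 at 500 µg/mL. Every one of the 18 exceeded the highest vehicle library, and the Palmul-tang medium group had the highest mean. Samul-tang gave PLIN2 levels of 246 and 243 CPM at 20 µg/mL, 284 and 265 at 100 µg/mL and 293 and 292 at 500 µg/mL. Sagunja-tang libraries had PLIN2 at 308, 325 and 281 CPM. Against vehicle the high doses were at 0.69 ± 0.051 (adjusted p = 1.37e-11), 0.69 ± 0.051 (adjusted p = 1.01e-11) and 0.57 ± 0.056 (adjusted p = 1.72e-08), and Palmul-tang medium was at 0.79 ± 0.051 (adjusted p = 1.06e-12). High exceeded low by 0.31 ± 0.051 (adjusted p = 0.000117) under Palmul-tang, 0.38 ± 0.051 (adjusted p = 1.52e-06) under Sibjeondaebo-tang and 0.26 ± 0.062 (adjusted p = 0.024) under Samul-tang. PLIN2 between Samul-tang doses (any 1 of 4) lost its call without 1 library, given by replicate number (adjusted p = 0.119 to 0.233).

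PLIN5, the perilipin that tethers droplets to mitochondria in oxidative tissues, had 5 to 38 counts a library and 0.771, 1.05 and 0.894 CPM in vehicle. Palmul-tang gave PLIN5 levels of 0.790, 0.618 and 0.621 CPM at 20 µg/mL, 0.692, 0.273 and 0.4997 at 100 µg/mL and 0.453, 0.551 and 0.231 at 500 µg/mL. Sibjeondaebo-tang gave PLIN5 levels of 0.685, 0.586 and 0.538 CPM at 20 µg/mL, 0.449, 0.316 and 0.279 at 100 µg/mL and 0.373, 0.199 and 0.437 at 500 µg/mL. The high-dose libraries lay below vehicle, at -1.09 ± 0.30 (adjusted p = 0.00587) and -1.45 ± 0.32 (adjusted p = 0.000635). Samul-tang gave PLIN5 levels of 0.346 and 0.422 CPM at 20 µg/mL, 0.472 and 0.596 at 100 µg/mL and 0.432 and 0.531 at 500 µg/mL. Sagunja-tang libraries had PLIN5 at 0.636, 0.398 and 0.661 CPM. Samul-tang passed at the high (-0.92 ± 0.32 (adjusted p = 0.0425)) and the low dose (-1.23 ± 0.35 (adjusted p = 0.0196)), and DESeq2 called neither. CIDEB, which enlarges droplets and lipidates lipoproteins in liver, rose at the low dose of Palmul-tang (0.31 ± 0.093), Sibjeondaebo-tang (0.33 ± 0.092) and Samul-tang (0.33 ± 0.10) and at Sibjeondaebo-tang medium (0.32 ± 0.093), and at no high dose. HILPDA, an inhibitor of the lipase PNPLA2, rose at Palmul-tang medium (0.37 ± 0.12 (adjusted p = 0.0263)) and high (0.32 ± 0.12 (adjusted p = 0.0473)), the second not by DESeq2. PLIN3 passed in no comparison. PLIN5 at Samul-tang high (vehicle 2 or 3 or own 2 or 3), PLIN5 at Samul-tang low (vehicle 2 or own 2 or 3), CIDEB at Palmul-tang low (vehicle 2 or own 1 or 3), CIDEB at Samul-tang low (any 1 of 5), CIDEB at Sibjeondaebo-tang medium (own 3), HILPDA at Palmul-tang medium (vehicle 1 or 3 or own 2 or 3) and HILPDA at Palmul-tang high (vehicle 1 or 3 or own 1, 2 or 3) lost their calls without 1 library, given by replicate number (adjusted p = 0.0545 to 0.274).

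Of the lipolysis genes, PNPLA2, the main triglyceride lipase, passed in no comparison, with changes against vehicle from -0.09 to 0.09. PNPLA3, a droplet protein known to be induced by SREBP-1, had 25.8, 24.5 and 27.9 CPM in vehicle. It overlaps SAMM50 on the same strand (942 to 1883 counts), so reads of the 2 can be mixed, and SAMM50 was called higher from low to high dose of Sibjeondaebo-tang (0.22 ± 0.060, adjusted p = 0.00852). Palmul-tang gave PNPLA3 levels of 23.2, 22.6 and 24.0 CPM at 20 µg/mL, 23.6, 21.5 and 18.5 at 100 µg/mL and 19.8, 15.2 and 17.9 at 500 µg/mL. Sibjeondaebo-tang gave PNPLA3 levels of 22.9, 24.0 and 21.3 CPM at 20 µg/mL, 21.1, 21.0 and 19.3 at 100 µg/mL and 20.1, 19.2 and 16.2 at 500 µg/mL. The high-dose libraries of both were below vehicle (-0.56 ± 0.11 (adjusted p = 0.000382) and -0.49 ± 0.11 (adjusted p = 0.00104)). Samul-tang gave PNPLA3 levels of 23.3 and 23.0 CPM at 20 µg/mL, 17.8 and 25.4 at 100 µg/mL and 20.2 and 19.2 at 500 µg/mL. Sagunja-tang libraries had PNPLA3 at 26, 22.7 and 18.1 CPM. Samul-tang high passed (-0.40 ± 0.12 (adjusted p = 0.02)). High was below low under Palmul-tang (-0.40 ± 0.11 (adjusted p = 0.0286)). PNPLA3 at Samul-tang high (vehicle 3 or own 2 or 3) and PNPLA3 between Palmul-tang doses (low 1, 2 or 3 or high 2 or 3) lost their calls without 1 library, given by replicate number (adjusted p = 0.0637 to 0.153).

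The oxidation genes moved in both directions. Under Palmul-tang high 3 of 6 rose and 2 fell (median 0.11), and under Sibjeondaebo-tang high (0.04) and Samul-tang high (0.03) 2 rose and 1 fell. Over all genes 16.3%, 19.3% and 9.82% were called higher and 15.6%, 16.7% and 8.69% lower in these groups. The lower call at Sibjeondaebo-tang high was no more than that share of 6 genes. ACADM, which starts the oxidation of medium-chain fatty acids, had 57.7, 54.8 and 59.6 CPM in vehicle. Palmul-tang gave ACADM levels of 62.8, 64.0 and 65.8 CPM at 20 µg/mL, 65.8, 67.7 and 63.5 at 100 µg/mL and 62.6, 71.7 and 62.2 at 500 µg/mL. Sibjeondaebo-tang gave ACADM levels of 68.0, 65.6 and 66.4 CPM at 20 µg/mL, 66.8, 65.4 and 65.6 at 100 µg/mL and 66.7, 63.3 and 69.5 at 500 µg/mL. All 18 were above vehicle, by 0.19 ± 0.060 (adjusted p = 0.014) and 0.21 ± 0.060 (adjusted p = 0.00622) at the high doses. Samul-tang gave ACADM levels of 68.0 and 67.7 CPM at 20 µg/mL, 76.3 and 61.4 at 100 µg/mL and 66.8 and 64.4 at 500 µg/mL. Sagunja-tang libraries had ACADM at 62.2, 68.3 and 60.4 CPM. Samul-tang high was at 0.19 ± 0.067 (adjusted p = 0.0386). ACADM lies over RABGGTB on the same strand, so reads of the 2 can be mixed. ACADM at Palmul-tang high (vehicle 2 or own 2), ACADM at Sibjeondaebo-tang high (vehicle 2 or own 3) and ACADM at Samul-tang high (vehicle 1 or 2 or own 2 or 3) lost their calls without 1 library, given by replicate number (adjusted p = 0.0645 to 0.255).

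ACADVL, the very-long-chain acyl-CoA dehydrogenase that opens mitochondrial oxidation, had 118, 116 and 122 CPM in vehicle. Palmul-tang gave ACADVL levels of 134, 128 and 121 CPM at 20 µg/mL, 143, 138 and 129 at 100 µg/mL and 158, 149.9 and 148 at 500 µg/mL. Sibjeondaebo-tang gave ACADVL levels of 125, 122 and 122 CPM at 20 µg/mL, 132, 125 and 120.1 at 100 µg/mL and 116, 113 and 109.6 at 500 µg/mL. The Palmul-tang high libraries were above vehicle without overlap and the Sibjeondaebo-tang high libraries were not. Samul-tang gave ACADVL levels of 128 and 128 CPM at 20 µg/mL, 151 and 134 at 100 µg/mL and 147 and 141 at 500 µg/mL. Sagunja-tang libraries had ACADVL at 132, 129.8 and 173 CPM. It rose at Palmul-tang high (0.36 ± 0.050 (adjusted p = 2.46e-06)), Palmul-tang medium (0.20) and Samul-tang high (0.28 ± 0.055 (adjusted p = 0.000568)), and at Samul-tang medium (0.27), though not without replicate 2 there (adjusted p = 0.106). Sibjeondaebo-tang high was at -0.08 ± 0.050 (adjusted p = 0.256).

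The carnitine palmitoyltransferases, which carry acyl groups into mitochondria, were called higher than vehicle in no group. CPT1A, the outer-membrane step, had 41.4, 44.5 and 47.3 CPM in vehicle. Palmul-tang gave CPT1A levels of 39.3, 38.7 and 37.9 CPM at 20 µg/mL, 44.4, 43.0 and 42.6 at 100 µg/mL and 49.3, 46.6 and 46.3 at 500 µg/mL. Sibjeondaebo-tang gave CPT1A levels of 39.0, 38.3 and 35.7 CPM at 20 µg/mL, 43.1, 38.6 and 35.6 at 100 µg/mL and 48.0, 48.0 and 46.9 at 500 µg/mL. Low-dose libraries were below vehicle and high-dose libraries near its upper end. Samul-tang gave CPT1A levels of 36.3 and 37.1 CPM at 20 µg/mL, 28.8 and 40.5 at 100 µg/mL and 43.9 and 45.8 at 500 µg/mL. Sagunja-tang libraries had CPT1A at 37.4, 41.6 and 47.1 CPM. The high dose exceeded the low dose under Palmul-tang (0.30 ± 0.078 (adjusted p = 0.0164)) and Sibjeondaebo-tang (0.34 ± 0.077 (adjusted p = 0.00212)), and Samul-tang did not pass (0.29 ± 0.095, adjusted p = 0.171). Against vehicle CPT1A was lower at Sibjeondaebo-tang low (-0.24 ± 0.077; adjusted p = 0.112 without the library with fibroblast transcripts), Samul-tang low (-0.27 ± 0.088) and Samul-tang medium (-0.37 ± 0.088; adjusted p = 0.4 without replicate 2). CPT2, the inner-membrane step, had 20.9, 21.4 and 23.1 CPM in vehicle. Palmul-tang gave CPT2 levels of 18.8, 19.9 and 18.9 CPM at 20 µg/mL, 19.5, 18.8 and 19.3 at 100 µg/mL and 18.6, 18.9 and 19.8 at 500 µg/mL. Sibjeondaebo-tang gave CPT2 levels of 18.5, 20.4 and 19.1 CPM at 20 µg/mL, 17.8, 17.6 and 20.2 at 100 µg/mL and 17.6, 19.7 and 19.2 at 500 µg/mL. These 18 libraries lay below vehicle, at -0.19 ± 0.062 (adjusted p = 0.0175) and -0.21 ± 0.062 (adjusted p = 0.00963) for the high doses. Samul-tang gave CPT2 levels of 19.4 and 19.1 CPM at 20 µg/mL, 21.5 and 21.5 at 100 µg/mL and 18.0 and 17.2 at 500 µg/mL. Sagunja-tang libraries had CPT2 at 19.9, 19.8 and 17.0 CPM. CPT2 was lower in 7 of the 9 comparisons with vehicle, Samul-tang high included (-0.30 ± 0.068 (adjusted p = 0.00205)), and not at Samul-tang medium (-0.01) or low (-0.18). HADHA and HADHB, the 2 subunits of the trifunctional protein, share a start region on opposite strands. HADHA rose at Palmul-tang high (0.12 ± 0.039), Sibjeondaebo-tang high (0.20 ± 0.039), Sibjeondaebo-tang medium (0.13 ± 0.039) and Samul-tang medium (0.17 ± 0.044; adjusted p = 0.114 without replicate 2), whereas HADHB fell at Palmul-tang high (-0.16 ± 0.048). CPT1A between Palmul-tang doses (high 1 or low 2 or 3), CPT1A at Sibjeondaebo-tang low (vehicle 2 or 3 or own 2 or 3), CPT1A at Samul-tang low (vehicle 2 or 3 or own 2 or 3), CPT2 at Palmul-tang high (vehicle 3 or own 1 or 2), CPT2 at Sibjeondaebo-tang high (vehicle 3), CPT2 at Samul-tang high (own 3), HADHA at Palmul-tang high (own 2 or 3) and HADHB at Palmul-tang high (vehicle 1 or own 2) lost their calls without 1 library, given by replicate number (adjusted p = 0.0519 to 0.192).

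Of the carrier and the secreted protein, FABP1, which binds fatty acids in the hepatocyte cytosol, was called at Palmul-tang medium (0.47 ± 0.16 (adjusted p = 0.048)), Sibjeondaebo-tang medium (0.45 ± 0.16 (adjusted p = 0.0457)) and Sibjeondaebo-tang high (0.45 ± 0.16 (adjusted p = 0.0411)). Its replicates spread widely, 456, 329 and 361 CPM at Sibjeondaebo-tang high beside 248, 299 and 294 in vehicle. ANGPTL4, the secreted inhibitor of lipoprotein lipase and a known PPAR target, had 3.74, 3.93 and 3.91 CPM in vehicle. Palmul-tang gave ANGPTL4 levels of 4.74, 4.52 and 4.61 CPM at 20 µg/mL, 6.08, 5.32 and 5.53 at 100 µg/mL and 5.67, 5.03 and 4.38 at 500 µg/mL. Sibjeondaebo-tang gave ANGPTL4 levels of 4.29, 4.80 and 4.65 CPM at 20 µg/mL, 4.78, 3.97 and 3.62 at 100 µg/mL and 5.01, 5.12 and 3.24 at 500 µg/mL. Palmul-tang libraries were above vehicle at all doses, and the test passed at medium (0.54 ± 0.14 (adjusted p = 0.00402)) and high (0.39 ± 0.14 (adjusted p = 0.0278)). Samul-tang gave ANGPTL4 levels of 4.85 and 4.53 CPM at 20 µg/mL, 4.75 and 3.85 at 100 µg/mL and 5.80 and 4.69 at 500 µg/mL. Sagunja-tang libraries had ANGPTL4 at 5.39, 4.65 and 4.40 CPM. Samul-tang high passed (0.44 ± 0.15 (adjusted p = 0.0327)). FABP1 at Palmul-tang medium (any 1 of 6), FABP1 at Sibjeondaebo-tang medium (any 1 of 6), FABP1 at Sibjeondaebo-tang high (vehicle 1, 2 or 3 or own 1 or 3), ANGPTL4 at Palmul-tang high (vehicle 1, 2 or 3 or own 1 or 2) and ANGPTL4 at Samul-tang high (vehicle 1, 2 or 3 or own 2) lost their calls without 1 library, given by replicate number (adjusted p = 0.0543 to 0.404).

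Set side by side, the calls of the members of synthesis and triglyceride assembly at the high doses were all lower ones. Fewer than all of these members were called. The calls of the droplet coat and oxidation members went both ways. Further genes of synthesis and of triglyceride and droplets, given below, were called in both directions. Over the 3 high doses together with vehicle as the shared reference, the 16 members of synthesis and triglyceride assembly had 8, 6 and 8 lower calls and 0 higher ones. The 11 members of the droplet coat and oxidation had 5, 3 and 3 higher calls and 3, 2 and 2 lower ones. Over all genes 16.3%, 19.3% and 9.82% were called higher and 15.6%, 16.7% and 8.69% lower in these comparisons. At Sibjeondaebo-tang high the calls of these 11 lay near those shares. Within triglyceride assembly and the droplet coat the direction differed by step, with GPAM and DGAT2 lower and PLIN2 higher in the same libraries. PNPLA3, listed under lipolysis, was lower there too. Within oxidation CPT2 was lower and ACADM higher in the same libraries. The 3 high-dose comparisons share the vehicle libraries, so they are not independent of one another.

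**Figure D4:**
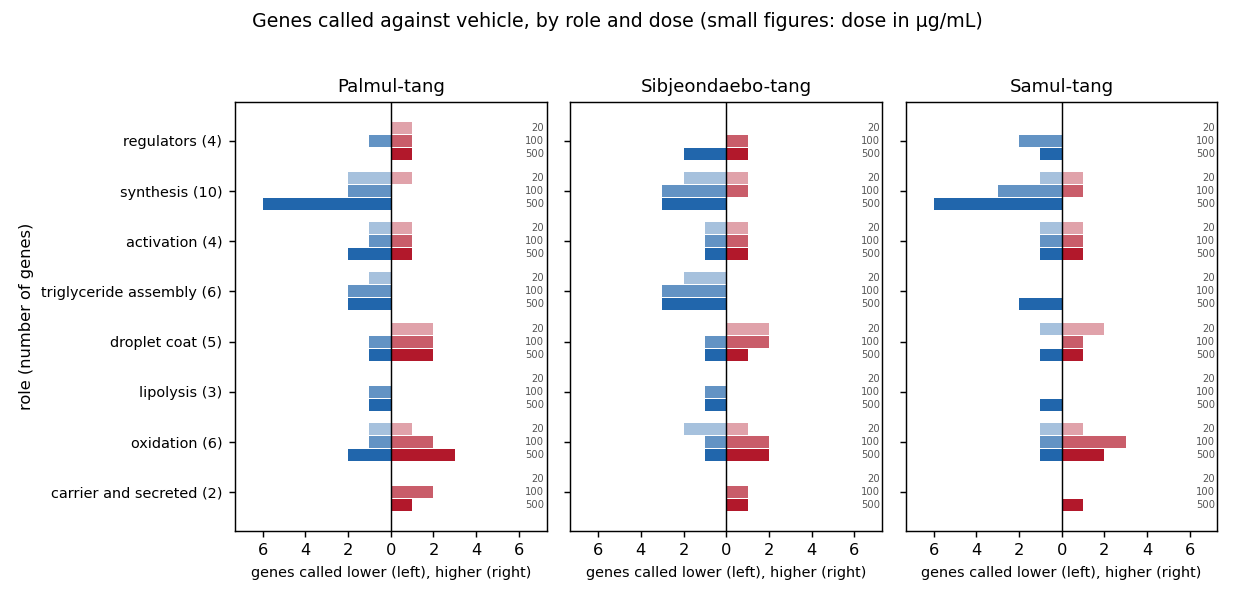
Number of genes called lower (blue, to the left) and higher (red, to the right) against vehicle in each role group, for 3 formulas and the doses 20, 100 and 500 µg/mL (paler to darker). The synthesis bars reach 6 lower calls at 500 µg/mL for Palmul-tang and Samul-tang and 3 for Sibjeondaebo-tang, triglyceride assembly has no red bar, and oxidation has bars on both sides.

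The comparison of high with low dose asks what changed with dose inside 1 set of libraries, without the vehicle. Palmul-tang changed 13 of 39 members, 3 higher and 10 lower, beside 3.75% and 3.03% of all genes. Sibjeondaebo-tang changed 2 higher and 6 lower beside 10.4% and 9.44% (2 and 5 without the library with fibroblast transcripts), and Samul-tang 1 higher and 3 lower beside 0.709% and 0.715%. Synthesis genes fell in 4, 1 and 1 of 10 (Palmul-tang, Sibjeondaebo-tang, Samul-tang), and 0 rose. Triglyceride assembly genes fell in 2, 3 and 2 of 6, and 0 rose. Oxidation genes rose in 2, 1 and 0 of 6, and 0 fell. FADS2, GPAM and DGAT2 fell and PLIN2 rose under all 3 formulas, where 0.497% of all genes fell and 0.603% rose under all 3. Palmul-tang also lowered MLXIPL, SCD, ELOVL6, FADS1, ACSL1, ACSL4 and PNPLA3. In the order of group means, 19 members stood lower and 7 higher at each step from 20 to 500 µg/mL under Palmul-tang, 11 and 9 under Sibjeondaebo-tang, 14 and 4 under Samul-tang and 19 and 1 under Sagunja-tang. Over all tested genes the shares lower and higher at each step were 22.5% and 23.9%, 22.2% and 28%, 15.4% and 15.3%, and 20.5% and 21.3% in the same formulas. CIDEB, FADS2, GPAM, MLXIPL and PNPLA3 stood lower at each step under these 3 and under Sagunja-tang, an order of means with no test. The summed hepatocyte markers also differed between doses, at 62658 to 63697 CPM at the low and 54950 to 58093 at the high dose of Palmul-tang. They stood at 62882 to 64505 and 59913 to 61781 under Sibjeondaebo-tang, 64582 to 65182 and 57561 to 59165 under Samul-tang, and 63846 and 54062 in the Sagunja-tang libraries. Low and high dose did not overlap in any formula. Of the 10 markers 4, 4 and 1 were called lower and 0, 1 and 0 higher from low to high dose in the 3 formulas with replicates. ALB, the albumin gene, was lower in each (-0.31, -0.30 and -0.30). The part of this in the members' dose changes was not tested. The difference in dose response between Samul-tang and Palmul-tang was called for 0 of 39 members (all genes 0% higher, 0.0124% lower). For that difference 3 members had an unadjusted p below 0.05 by edgeR, and DESeq2 called 0.

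Sibjeondaebo-tang and Palmul-tang were compared dose for dose, also within 1 set. At 500 µg/mL 2 members were higher in Sibjeondaebo-tang and 2 lower, beside 1.75% and 4.72% of all genes. With median-ratio factors the members' split was 1 and 2, and the higher share of all called genes 15% in place of 27.1%. MLXIPL was lower in Sibjeondaebo-tang (-0.79 ± 0.066 (adjusted p = 9.4e-10)), as was ACADVL (-0.43 ± 0.050 (adjusted p = 3.83e-07)). FADS2 (0.14 ± 0.040 (adjusted p = 0.0325)) and SCD (0.16 ± 0.044 (adjusted p = 0.0205)) were higher. At 100 µg/mL PLIN2 alone was called (-0.29 ± 0.051 (adjusted p = 0.00938); all genes 0% higher, 0.0311% lower), and at 20 µg/mL 0 members were called by edgeR or DESeq2, with 0 at an unadjusted p below 0.05 by edgeR (all genes 0% and 0%). The difference between the dose responses (high minus low, Sibjeondaebo-tang minus Palmul-tang) was called for MLXIPL (-0.71 ± 0.092 (adjusted p = 1.1e-05)) and ACADVL (-0.38 ± 0.071 (adjusted p = 0.00151)) and for no other member, beside 0.0497% of all genes higher and 1.95% lower. For the rest of the module the high-dose difference between the 2 formulas did not pass, for example DGAT2 at 0.14 ± 0.051, GPAM at 0.07 ± 0.049, PLIN2 at 0.01 ± 0.051 and FASN at 0.11 ± 0.079 (adjusted p = 0.0952, 0.45, 0.963 and 0.482), which does not show that they are alike. FADS2 between the formulas at the high dose (any 1 of 6), SCD between the formulas at the high dose (any 1 of 6) and PLIN2 between the formulas at the medium dose (Palmul-tang medium 1 or 3 or Sibjeondaebo-tang medium 2 or 3) lost their calls without 1 library, given by replicate number (adjusted p = 0.0509 to 0.251).

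**Figure D5:**
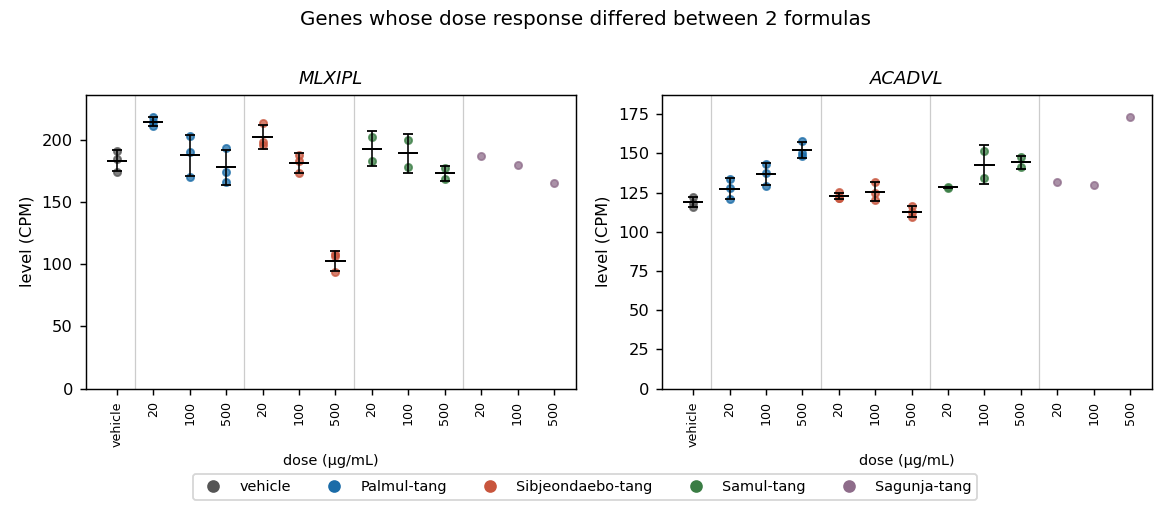
Level (CPM, linear axes from 0) of MLXIPL and ACADVL in each of the 30 libraries, by formula and dose, with means and SD where a group has more than 1 library. MLXIPL lies at 93.6 to 108 CPM in the 3 Sibjeondaebo-tang libraries at 500 µg/mL and at 165 to 218 CPM in all others, and ACADVL rises with dose under Palmul-tang but lies lowest at 500 µg/mL under Sibjeondaebo-tang.

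Sagunja-tang had 1 library a dose, so its values carry no test. From the low to the high dose the median log2 difference of the 39 members was -0.15, beside 0.0081 over all genes. A difference of -0.3 or below was seen in 9 members and one of 0.3 or above in 2, against 15.7% and 12.8% of all genes. The larger ones were FABP1 (-0.69), FADS2 (-0.57), PNPLA3 (-0.52), CIDEB (-0.45), DGAT2 (-0.43) and GPAM (-0.41), and on the other side ACADVL (0.40) and CPT1A (0.33). PLIN2 was above vehicle at each dose (0.64, 0.72 and 0.51 from low to high).

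Other genes of the same pathways, from textbook lists, were counted beside the members. Listed genes that did not pass the filter on low counts were not tested. Among these were INSIG1 and ME1 of synthesis, G0S2 and MGLL of the droplet list, and PDK4 and FGF21 of oxidation. Over all genes, 16.3% were called higher and 15.6% lower at Palmul-tang high, 19.3% and 16.7% at Sibjeondaebo-tang high and 9.82% and 8.69% at Samul-tang high. Of 18 further synthesis genes tested, 4 rose and 3 fell under Palmul-tang high, 4 and 1 under Sibjeondaebo-tang high and 1 and 2 under Samul-tang high. These counts of the 18 lay below the shares over all genes or slightly above them. ACSS2, which makes acetyl-CoA from acetate, fell most (-0.63 ± 0.042 at Palmul-tang high, and -0.39 ± 0.042 from low to high dose of Sibjeondaebo-tang), while INSIG2, which holds SREBP in the endoplasmic reticulum, rose (0.32 ± 0.051), as did the mitochondrial synthase OXSM (0.55 ± 0.10). From low to high dose of Sibjeondaebo-tang, HACD3 (0.19 ± 0.043) and MCAT (0.29 ± 0.067), which work in elongation and mitochondrial synthesis, rose. Of 20 further triglyceride and droplet genes, 5 rose and 4 fell, 5 and 6, and 3 and 4 in the same 3 groups. GPAT3, a second acyltransferase for the step of GPAM, rose (0.89 ± 0.075 at Palmul-tang high and 0.69 ± 0.074 from low to high dose of Sibjeondaebo-tang), where GPAM fell. The droplet proteins METTL7A fell (-0.69 ± 0.069) and AUP1 rose (0.37 ± 0.051) at Palmul-tang high, and from low to high dose of Sibjeondaebo-tang LPIN3 fell (-0.60 ± 0.069) and the droplet fusion gene CIDEC rose (0.57 ± 0.11).

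Of 25 further oxidation genes, 4 rose and 11 fell under Palmul-tang high (median -0.09), 5 and 9 under Sibjeondaebo-tang high (-0.07) and 4 and 6 under Samul-tang high (-0.07), each time a larger share lower than over all genes. ACOT2 (-0.72 ± 0.075) and ACOT1 (-0.78 ± 0.10), thioesterases so alike that the counting may divide reads between them, fell at Palmul-tang high, and ETFB, an electron carrier of the dehydrogenases, rose there (0.39 ± 0.064) and from low to high dose of Sibjeondaebo-tang (0.48 ± 0.064). ACADSB (-0.25 ± 0.041) and CPT1B (-0.55 ± 0.12) fell in the latter. Of 11 uptake and transport genes, 4 rose and 2 fell under Palmul-tang high, 3 and 3 under Sibjeondaebo-tang high and 3 and 0 under Samul-tang high. Over all genes 16.3%, 19.3% and 9.82% were called higher and 15.6%, 16.7% and 8.69% lower in these groups. The 2 lower calls at Palmul-tang high lay near that share. MTTP, which loads triglyceride onto apolipoprotein B, rose at Palmul-tang high (0.30 ± 0.047) and from low to high dose of Sibjeondaebo-tang (0.30 ± 0.046). The acyl-CoA synthetase SLC27A2 rose in both (0.40 ± 0.059 and 0.23 ± 0.057), SLC27A5 fell in the first (-0.45 ± 0.12) and SLC27A4 rose in the second (0.32 ± 0.062).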

How the data were processed

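Libraries were made with a directional kit and sequenced as 100-base paired reads, per the labels' protocols. The authors deposited expected counts per gene, not normalised, for 60675 Ensembl rows, and 240 columns belonged to no sample used here. RSEM 1.3.3, STAR 2.7.3a, Trim Galore 0.6.5 and FastQC 0.11.9, and the builds hg38 and GRCh38, stand in the submitters' processing notes. The annotation release is not given there. RSEM divides ambiguous reads by estimate, so 8.56% of values were not whole, and near-identical genes are uncertain. Of the rows, 56558 matched a symbol and 57055 GENCODE 29, which gave positions and exon lengths.

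Expected counts were rounded. Genes passing filterByExpr (minimum count 10, minimum total 15), 16083 in all, were fitted with edgeR 4.0.16 (R 4.3.3; TMM factors, robust quasi-likelihood) over the 27 libraries of the 10 groups with replicates, leaving 17 residual degrees of freedom. The 17 comparisons were two-sided, with Benjamini-Hochberg adjustment over all genes and a threshold of 0.05. Each standard error was taken as |log2 fold change|/sqrt(F). CPM levels used TMM factors. No replicate pair agreed within counting noise (chi-square per gene of 2.99 or more). Counts were simulated for Palmul-tang high against vehicle (15885 genes fitted), with the same spread for every gene and few genes changed. Among genes with a mean of 100 counts or more, 97.1% of those changed 1.5-fold and 46.9% of those changed 1.2-fold were called. Of unchanged ones 0.0364% were called. These rates need not hold for the members, whose spread differs by gene. Alternatives were DESeq2 1.42.0, median-ratio factors, no count filter, an offset for GC content and length, a replicate block, the compared groups alone, and leaving out each library.

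The labels give 0.1% DMSO for the vehicle samples and the series design 2%. The members and lists were chosen with earlier results of these data known. Values in every library are given for members called in at least 2 of the 3 high against low comparisons and, per role, for up to 3 members with the largest mean change at the high doses among those called in at least 2. Other pathway genes named are up to 3 a list with the smallest adjusted p in Palmul-tang high against vehicle and in Sibjeondaebo-tang high against low. The wortmannin control that the series design names was not analysed here.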

Additional observations from a re-analysis of the deposited data

Results flagged for a closer look

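The dose response of 2 members differed between Sibjeondaebo-tang and Palmul-tang by a test of the difference itself (edgeR quasi-likelihood, adjusted over 16083 genes). For MLXIPL the change from low to high dose was -0.98 ± 0.066 (adjusted p = 5.11e-12) under Sibjeondaebo-tang and -0.27 ± 0.065 (adjusted p = 0.00777) under Palmul-tang, a difference of -0.71 (adjusted p = 1.1e-05). For ACADVL it was -0.12 ± 0.050 (adjusted p = 0.0857) and 0.26 ± 0.050 (adjusted p = 0.000942), a difference of -0.38 (adjusted p = 0.00151). Both differences held without any 1 library and under each of the 6 other settings, where they ran from -0.73 to -0.70 and from -0.40 to -0.37. The libraries of Sibjeondaebo-tang high also had mitochondrially encoded transcripts at 17.2% to 19.4% of counts, above 14.9% to 16.9% in Palmul-tang high. Shares in that range were not limited to this group. They were 15.7%, 18.5% and 19.7% at Sibjeondaebo-tang medium, where neither gene was called against vehicle, and 18.4% in Palmul-tang low replicate 1. The part of this in the 2 results was not tested.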

How the results depend on the processing

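No call of a member reversed under any alternative. Of the 170 calls, DESeq2 kept 161, median-ratio factors 165, no count filter 148, the GC and length offset 161 and the compared groups alone 150. The number of members called moved by over 1.5 times with the compared groups alone at Sibjeondaebo-tang low (21 in place of 12), Samul-tang medium (1 in place of 13), Sibjeondaebo-tang high against low (15 in place of 8), Sibjeondaebo-tang against Palmul-tang high (2 in place of 4, also 2 with no count filter) and medium (0 in place of 1). The numbers moved both up and down, and the cause was not tested. Fits of fewer libraries have fewer degrees of freedom.

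Leaving out 1 library, the members called ranged from 10 to 14 at Palmul-tang medium (17 with all), 7 to 10 at Palmul-tang low (11), 7 to 11 at Sibjeondaebo-tang low (12), 10 to 15 at Samul-tang high (18), 2 to 18 at Samul-tang medium (13) and 2 to 7 at Samul-tang low (9). Lowest counts came without Palmul-tang medium replicate 2 or 3 (10), vehicle replicate 2 or Palmul-tang low replicate 3 (7), vehicle replicate 2 (7), Samul-tang high replicate 2 (10), Samul-tang medium replicate 2 (2) and Samul-tang low replicate 3 (2). High against low dose of Samul-tang gave 1 to 3 (4; 1 without high replicate 2 or low replicate 3), Sibjeondaebo-tang against Palmul-tang 2 to 2 at the high (4) and 0 to 1 at the medium dose (1). Where 1 library remained in a group it was assumed to vary like the others.

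With the replicate number as a block, 165 of the 170 calls were kept. The lost calls were HILPDA at Palmul-tang high, AGPAT2 at Sibjeondaebo-tang low, PLIN5 at Samul-tang high, and CIDEB and CPT1A at Samul-tang low. Same-numbered libraries did not deviate together (median correlation 0.0046 over 111 pairs, from -0.17 to 0.15), and 12 of 27 libraries correlated best with their own number, so the numbers were not taken as pairs. Precision is limited for PLIN5 (5 to 38 counts) and AGPAT2 (35 to 86), and by 2 libraries a dose for Samul-tang and 1 for Sagunja-tang.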
